A study of Mus musculus with 9 samples.

Results

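The Notch receptors and targets of developing T cells were read in the chromatin of a thymic lymphoma. The set held 9 of the 21887 protein-coding genes that RefSeq places on the chromosomes of the peak lists, chosen by name: the receptors Notch1, Notch2 and Notch3, the DNA-binding partner Rbpj, and the target genes Hes1, Hey1, Dtx1, Nrarp and Ptcra. The cells came from thymus of C57BL/6J mice with a T-cell lymphoma driven by MYCN. How MYCN was expressed in these mice, their age and the number of animals behind each library are not given in the sources used here. ChIPmentation, a chromatin immunoprecipitation in which a transposase adds the sequencing adapters on the beads, was run with antibodies to H3K4me3, H3K27ac, p300, N-MYC, EZH2, SUZ12 and H3K27me3. Each antibody had 1 library and 1 deposited peak list, and all 7 lists came from cells with the same label, so no sample without the MYCN lymphoma was compared. Of the 9 samples, 2 were inputs and were not used here. A single library per antibody leaves the spread between replicates unknown, so p-values were not computed. Read depth is not given in the sources used here, and whether a peak lies in an exon or an intron was not analysed here.

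Notch receptors are cleaved when a ligand on a neighbouring cell binds them, and the released intracellular part enters the nucleus, where it joins RBPJ and Mastermind proteins and recruits p300 to switch on target genes. In the thymus, Notch1 signalling commits progenitors to the T-cell fate and carries them through the early stages, and its activation is a common event in T-cell leukaemia. H3K4me3 marks active promoters and H3K27ac marks active promoters and enhancers. EZH2 and SUZ12 belong to Polycomb repressive complex 2, which deposits the repressive mark H3K27me3. The study, whose title speaks of peripheral T-cell lymphoma, asks about EZH2 as an activator of transcription, so each gene was read for EZH2 with and without the other Polycomb features.

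The values below are the fold enrichment of a peak over background, as the authors deposited it, and a gene without a peak had no call above their threshold. The list lengths ran from 9798 peaks for N-MYC to 123056 for H3K27me3. Of 10 T-cell marker genes, 8 had H3K4me3 within 1 kb of the start, against 51.0% of all protein-coding genes. None had SUZ12, against 13.7%, and 2 had H3K27me3 (Cd8a at 8.285 and Bcl11b at 3.58), against 25.8%. The defining markers Cd3d and Cd3e had H3K4me3 fold enrichments of 36.3 and 33.2, whereas Cd8a and Cd8b1 had no H3K4me3 peak. H3K4me3 was also called at 2 of 6 B-cell, 1 of 6 myeloid, 1 of 6 thymic epithelial, 0 of 6 endothelial and stromal and 5 of 5 erythroid markers. H3K27ac was called at 8 of the 10 T-cell markers, against 51.6% of all genes. For B-cell, myeloid and thymic epithelial markers the H3K27ac counts were 2, 3 and 3 of 6. For endothelial and stromal markers the count was 1 of 6, and for erythroid markers 5 of 5. Spi1 had the strongest of the myeloid H3K27ac peaks (19.8), together with H3K27me3 (5.51) and without H3K4me3.

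Each gene was first read within 1 kb of its start. H3K4me3 was called at 7 of the 9 genes, against 51.0% of all protein-coding genes, and EZH2 at 7 of 9, against 45.8%. SUZ12 was called at 4 (13.7% of all genes), H3K27me3 at 5 (25.8%), H3K27ac at 5 (51.6%), p300 at 4 (39.3%) and N-MYC at 5 (32.9%). Over the gene body the counts were 7 for H3K4me3 (54.0% of all genes), 6 for H3K27ac (57.9%), 4 for p300 (42.0%), 3 for N-MYC (35.3%), 7 for EZH2 (47.1%), 4 for SUZ12 (14.9%) and 5 for H3K27me3 (30.2%). The combinations at the start differed between the genes. Notch1, Notch2 and Rbpj carried the 5 lists H3K4me3, H3K27ac, p300, N-MYC and EZH2 and neither SUZ12 nor H3K27me3, a combination found at 24.4% of all genes. The 4 target genes Hes1, Hey1, Dtx1 and Nrarp carried EZH2, SUZ12 and H3K27me3 together, as did 12.6% of all genes; SUZ12 with H3K27me3 was found at 13.6%. H3K4me3 and H3K27me3 were called together at 4 genes, Hes1, Hey1, Nrarp and Notch3, against 7.82% of all genes. In lists of equal length Hes1, Hey1 and Notch3 lost H3K4me3, which left this pair of marks at Nrarp alone. With the summit required in the window, Hes1, Hey1 and Dtx1 lost H3K27me3, which left the 3 Polycomb lists together at Nrarp alone. The shares of all genes above come from the full lists read by overlap, and none is given for either changed setting. Notch3 had H3K27me3 with weak active marks and no EZH2 or SUZ12, and Ptcra had no peak in any of the 7 lists, a state shared with 27.8% of all genes. Counts this small describe the 9 genes alone.

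**Figure D1:**
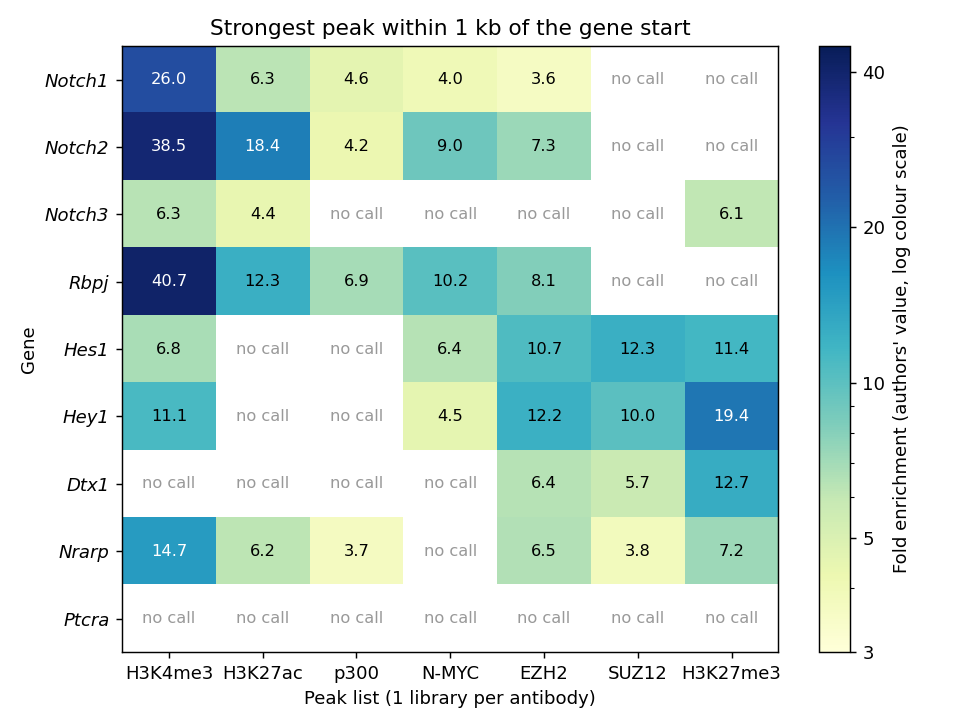
Fold enrichment (colour, log scale, and printed value) of the strongest peak within 1 kb of the start, for 9 Notch pathway genes (rows) and 7 peak lists (columns, 1 library each). Notch1, Notch2 and Rbpj fill the 5 left columns, Hes1, Hey1, Dtx1 and Nrarp carry the 3 Polycomb columns at the right, and Ptcra is empty.

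Ordered by H3K4me3, Rbpj (40.7) and Notch2 (38.5) stood first, followed by Notch1 (25.97), Nrarp (14.7), Hey1 (11.1), Hes1 (6.83) and Notch3 (6.30). The median over all genes with an H3K4me3 peak at the start was 26.5. Ordered by EZH2, Hey1 (12.2) and Hes1 (10.7) led, then Rbpj (8.13), Notch2 (7.29), Nrarp (6.51), Dtx1 (6.37) and Notch1 (3.60), against a median of 5.847 over genes with EZH2. Whether neighbours in either order differ cannot be said from single libraries.

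Notch2, a receptor best known for its part in marginal-zone B cells, had the strongest acetylation of the 9 starts. Its gene lies on the plus strand at chr3:98013538-98150367 (GRCm38). An H3K4me3 peak of 2757 bases and fold enrichment 38.5 lay over the start and stood at the 88.2nd percentile of genes with such a peak. H3K27ac reached 18.4, N-MYC 9.02, EZH2 7.29 and p300 4.22. The N-MYC summit lay 105 bases before the start and the EZH2 summit 209 bases after it, while the nearest H3K27me3 peak was 119.6 kb upstream.

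Notch1, the receptor that drives T-cell commitment, had the same 5 lists as Notch2, with p300 higher (4.56 against 4.22) and the other 4 lower. The gene lies on the minus strand at chr2:26457902-26503822. Its H3K4me3 peak spanned 3297 bases with a fold enrichment of 25.97, at the 48.25th percentile of genes with a peak. H3K27ac at the start was 6.28, p300 4.56, N-MYC 4.01 and EZH2 3.60, which put p300 at the 30.7th percentile of genes with that peak, H3K27ac at the 17.4th, N-MYC at the 10.3rd and EZH2 at the 4.87th. Both EZH2 peaks lay downstream of the start, with summits 293 and 616 bases into the gene. The EZH2 call at Notch1 was lost when peaks had to reach a q-value of 1e-05 or a fold enrichment of 4, and in lists cut to equal length, where the H3K27ac call was lost too.

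Notch3, a receptor whose transcription is itself induced by Notch signalling in thymocytes, stood apart from the other 2 receptors. The gene lies on the minus strand at chr17:32120820-32166896. H3K4me3 at its start was 6.30 in a peak of 583 bases, at the 6.37th percentile of genes with a peak, and H3K27ac was 4.39. An H3K27me3 peak of fold enrichment 6.07 had its summit 662 bases upstream, and a weaker one (3.51) lay 564 bases into the gene over the H3K4me3 peak. No N-MYC, p300 or EZH2 peak lay nearer than 116.4 kb. In lists of equal length all 3 of its calls were lost. Only 0.594% of all genes had this combination of lists, or 130 genes.

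Rbpj encodes the DNA-binding protein through which all Notch receptors act. The gene spans chr5:53555779-53657445 on the plus strand, and the RefSeq promoter windows place 2 starts inside this span. The H3K4me3 peak there was 5052 bases wide, at the 97.95th percentile of width in its list, with a fold enrichment of 40.7. N-MYC formed a peak of 1961 bases and 10.2, at the 99.5th percentile of width in the N-MYC list, and its summit lay 1231 bases upstream of the first start. p300 had peaks of 6.90 and 5.32, EZH2 of 8.13 and 5.83, and H3K27ac of 12.3. Both EZH2 summits lay downstream of the N-MYC summit, 371 bases before the first start and 563 bases after the second. With the summit required in the window the N-MYC call was lost. Read at the outer ends of the gene instead, Rbpj had no call in any list.

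Among the targets, Hes1, a transcriptional repressor and the classical direct target of Notch, carried the widest Polycomb domain. The gene occupies chr16:30065357-30067796, and Hes1 and Hey1 were read within 1 kb of both gene ends. EZH2 covered 9295 bases (fold enrichment 10.7), SUZ12 9857 bases (12.35) and H3K27me3 14804 bases (11.4), each within the widest 2% of its list. All 3 covered the whole gene. Within 1 kb of the gene ends, H3K4me3 was called over 627 bases inside the gene at 6.83, in the lowest 8% of genes with a peak. An N-MYC peak of 1481 bases and 6.42 ended 705 bases below the gene's lower-coordinate end, inside the EZH2 and SUZ12 domain. No p300 peak lay within 241.2 kb. The H3K4me3 and N-MYC calls were lost with a window of 500 bases, and an H3K27ac peak of 6.39 entered with a window of 2 kb. That peak overlapped the N-MYC peak and a further H3K4me3 peak that did not reach the 1 kb window.

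Hey1, a related repressor known for its part in vessel and heart development, showed the same 5 lists as Hes1. The gene lies at chr3:8663359-8667038. Its EZH2 peak reached 12.2 and its SUZ12 peak 10.02. H3K27me3 formed 2 peaks of 19.4 each, at the 95.7th percentile of genes with the mark. H3K4me3 was 11.1 over 1501 bases at the higher-coordinate end, and an N-MYC peak of 4.52 lay 106 bases beyond that end, within the H3K4me3 peak. The combination of H3K4me3, N-MYC, EZH2, SUZ12 and H3K27me3 without H3K27ac or p300 was found at 40 genes, or 0.183% of all. Hes1 and Hey1 were 2 of them, but with a window of 500 bases or of 2 kb Hes1 did not have this combination. N-MYC with SUZ12, whatever else was present, was found at 1.56% of all genes. The RefSeq gene LOC115489673, which overlaps the higher-coordinate end of Hey1, gave the same values and is no independent case. In bulk chromatin, 2 marks on the same allele, on different alleles and in different cells cannot be told apart.

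**Figure D2:**
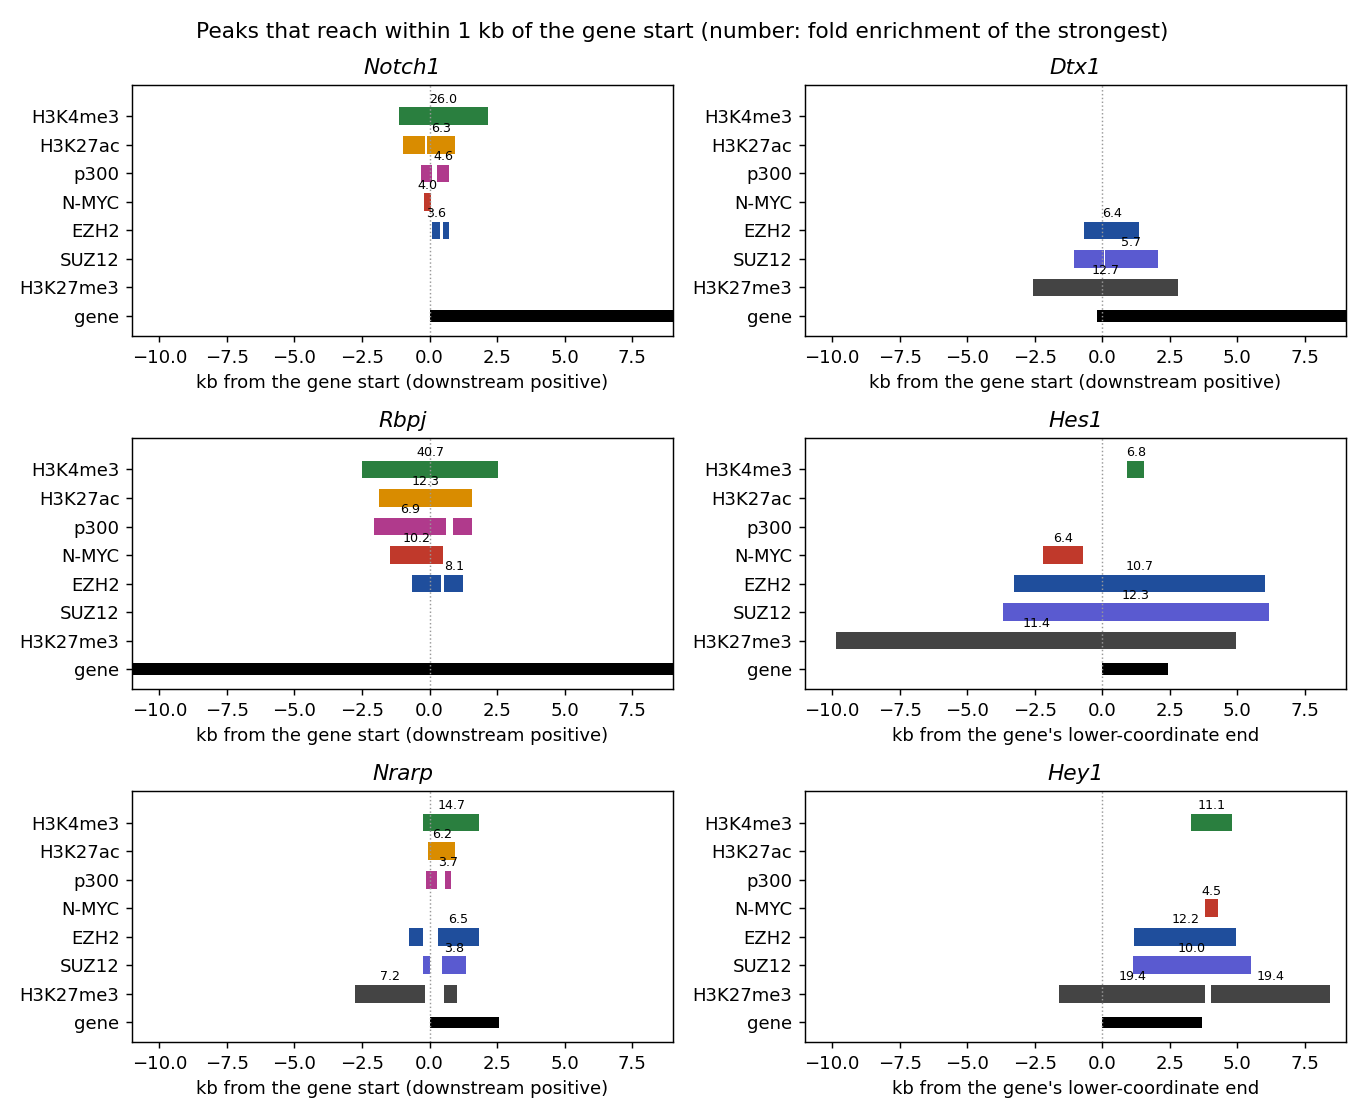
Peaks that reach within 1 kb of the start at 6 genes, drawn to scale along the x axis in kb from the start (for Hes1 and Hey1, from the lower-coordinate end), 1 row per list and the gene in black. Notch1 and Rbpj have active lists and EZH2, Dtx1 has Polycomb lists alone, Hes1 lies inside its EZH2, SUZ12 and H3K27me3 peaks, the EZH2 and SUZ12 peaks of Hey1 cover part of the gene, and Nrarp has both kinds of peak.

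Dtx1 encodes Deltex, an E3 ubiquitin ligase that binds the receptor and is induced by Notch. The gene lies on the minus strand at chr5:120680203-120711867. Only the 3 Polycomb lists were called at its start, as at 7.42% of all genes, and the H3K27me3 call was lost with the summit required in the window, since that summit lay 1030 bases into the gene. EZH2 reached 6.37 over 2051 bases, SUZ12 5.75 and H3K27me3 12.7 over 5365 bases. H3K27me3 continued into the gene with 11 peaks over the body, which covered 37.9% of it. The nearest H3K27ac peak lay 22.2 kb downstream of the start inside the gene (4.70), and the nearest H3K4me3 peak 61.5 kb away, near the gene Rasal1.

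Nrarp, a small ankyrin-repeat protein that Notch induces and that limits Notch signalling, carried 6 of the 7 lists. The gene lies on the plus strand at chr2:25180758-25183339. H3K4me3 was 14.7 over 2060 bases, H3K27ac 6.20 and p300 3.69. The Polycomb lists were called with them: EZH2 at 6.51, SUZ12 at 3.83 and H3K27me3 at 7.17. The strongest H3K27me3 peak ended 174 bases before the start, its summit 1272 bases upstream, and the H3K4me3, H3K27ac and p300 summits all lay downstream of the start. A second, weaker H3K27me3 peak (4.85) had its summit 862 bases into the gene. With fold enrichment held to 4 or more, the p300 and SUZ12 calls were lost, and in lists of equal length the p300 and H3K27ac calls. N-MYC was the missing list, its nearest peak 14.5 kb downstream. This combination was found at 59 genes, or 0.270% of all.

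Ptcra encodes the pre-T-cell receptor alpha chain, which immature thymocytes display with the rearranged beta chain and which Notch activates through an upstream enhancer. The gene lies on the minus strand at chr17:46755663-46763712. None of the 7 lists had a peak within 1 kb of the start or over its 8.05 kb. The nearest peaks of the 4 active lists and of EZH2 lay between 8.16 and 9.13 kb upstream, at the start of the neighbouring gene 2310039H08Rik. The nearest H3K27me3 peak was 103.1 kb away and the nearest SUZ12 peak 134.7 kb away, so the gene lay outside called Polycomb domains as well.

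**Figure D3:**
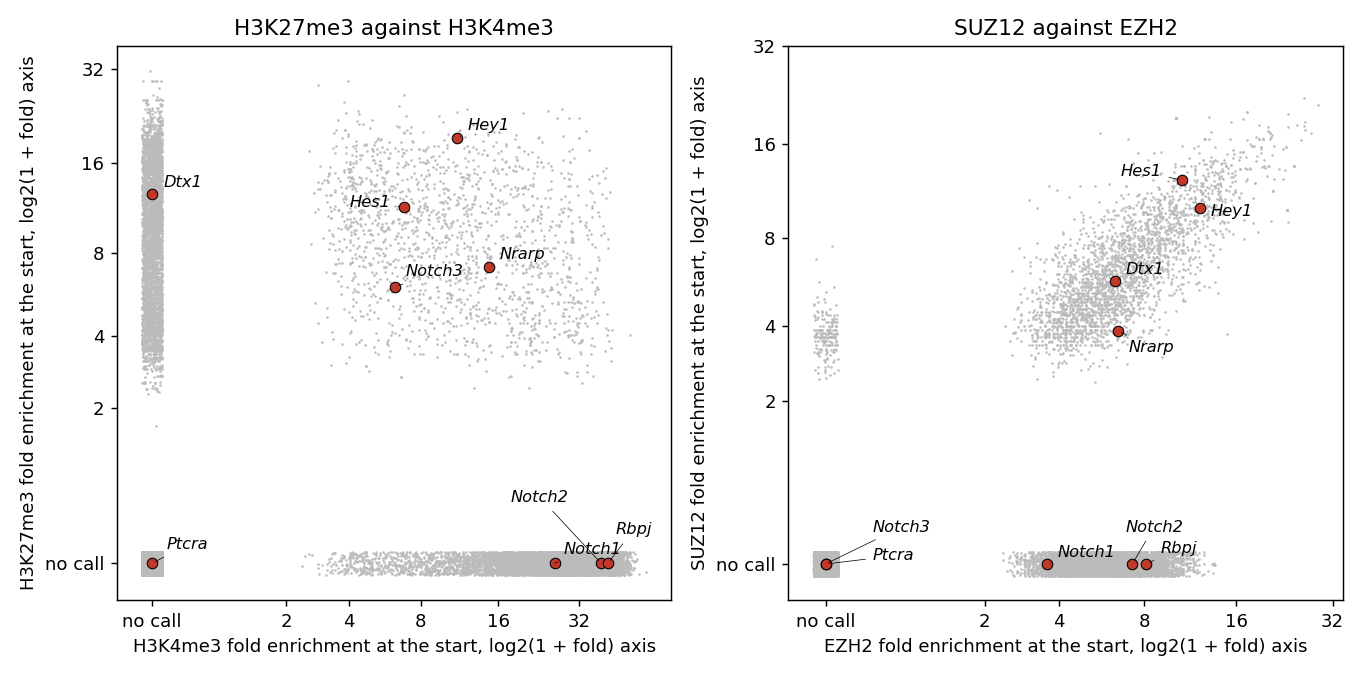
Fold enrichment of the strongest peak within 1 kb of the start for all 21887 protein-coding genes (grey) and the 9 Notch pathway genes (red), on log2(1 + fold) axes, with H3K27me3 against H3K4me3 at the left and SUZ12 against EZH2 at the right; genes without a call are spread around 0 to be visible. Hey1, Hes1, Nrarp and Notch3 have both histone marks, and Notch1, Notch2 and Rbpj have EZH2 without SUZ12.

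The RefSeq promoter windows (GRCm38.p6) held 7 of the 9 genes, all but Hes1 and Hey1. The 250 bases before each start were searched on both strands for TGGGAA, the core of the site that RBPJ binds, for the longer GTGGGAA, which contains it, and for the E-box CACGTG, a site of MYC proteins. TGGGAA was found in 21.6% of 32851 promoter windows, GTGGGAA in 5.42% and CACGTG in 6.02%. Of the 8 windows of these genes, 3 held TGGGAA, 1 held CACGTG and none held GTGGGAA. The sequences with a match are shown 5′ to 3′ on the gene's strand with the matches in capitals: Rbpj for the window before its first start, Nrarp for an E-box at a start without an N-MYC call, and Ptcra for a start without any call.
Rbpj, chr5:53590096-53590345, plus strand: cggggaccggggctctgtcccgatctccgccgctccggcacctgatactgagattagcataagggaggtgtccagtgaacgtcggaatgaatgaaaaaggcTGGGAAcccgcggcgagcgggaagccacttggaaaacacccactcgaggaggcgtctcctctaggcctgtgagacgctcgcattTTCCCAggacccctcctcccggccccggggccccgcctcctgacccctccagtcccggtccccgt
Nrarp, chr2:25180508-25180757, plus strand: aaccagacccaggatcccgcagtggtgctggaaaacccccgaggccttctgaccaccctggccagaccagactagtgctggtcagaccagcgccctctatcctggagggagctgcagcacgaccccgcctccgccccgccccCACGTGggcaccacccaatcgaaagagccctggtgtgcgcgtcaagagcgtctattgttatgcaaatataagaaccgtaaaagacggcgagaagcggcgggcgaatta
Ptcra, chr17:46763713-46763962, minus strand: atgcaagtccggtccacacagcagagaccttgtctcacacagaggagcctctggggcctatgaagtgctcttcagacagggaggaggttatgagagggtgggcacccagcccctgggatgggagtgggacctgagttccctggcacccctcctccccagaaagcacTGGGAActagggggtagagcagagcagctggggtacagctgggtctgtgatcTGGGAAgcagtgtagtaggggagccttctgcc
The 2 matches at Rbpj begin 149 and 65 bases before the first start, and the second is read on the opposite strand. The window before the second start of Rbpj overlaps the first and holds that same second match. Ptcra has its 2 matches 84 and 32 bases before the start, both on the gene's strand. The E-box of Nrarp begins 108 bases before the start. At Notch1, Notch2, Notch3 and Dtx1 none of the 3 motifs was found in these 250 bases, and Notch1 and Notch2 had N-MYC peaks there. A match or its absence in this window says nothing about binding.

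The same windows differed in CpG content. CpG dinucleotides numbered 34 at Notch2, 21 and 25 at the 2 Rbpj windows, 18 at Nrarp, 17 at Notch3, 16 at Notch1, 15 at Dtx1 and 1 at Ptcra, against a median of 6 over all windows. Among all genes with a window, the median was 17 for those with H3K4me3 at the start, 16 for those with SUZ12 and H3K27me3, and 2 for those without a peak in the 7 lists. The upstream sequences at the upper and lower end of this range are shown with each CG in capitals.
Notch2, chr3:98013288-98013537, plus strand: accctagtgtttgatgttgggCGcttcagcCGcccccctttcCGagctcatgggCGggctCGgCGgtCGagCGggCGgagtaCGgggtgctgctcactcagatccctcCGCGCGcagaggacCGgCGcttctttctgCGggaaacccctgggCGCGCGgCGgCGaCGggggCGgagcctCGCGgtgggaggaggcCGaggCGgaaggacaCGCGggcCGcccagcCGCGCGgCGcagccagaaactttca
Ptcra, chr17:46763713-46763962, minus strand: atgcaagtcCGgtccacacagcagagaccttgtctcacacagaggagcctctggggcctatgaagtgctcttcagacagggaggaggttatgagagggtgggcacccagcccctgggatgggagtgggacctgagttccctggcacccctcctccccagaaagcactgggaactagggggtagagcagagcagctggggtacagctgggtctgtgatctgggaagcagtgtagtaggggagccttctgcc
By this count the Notch2 window stood at the 97.03rd percentile of all windows and the Ptcra window at the 18.8th. Dtx1, with Polycomb peaks alone at its start, and Notch1, with no SUZ12 or H3K27me3 peak, differed by 1 CpG.

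H3K27ac and p300 were then read over each gene and 50 kb either side. H3K27ac had 172 peaks in these windows, at 8 of the 9 genes (74.5% of all genes have at least 1), and p300 had 28, at 6 of the 9 (63.3%). After leaving out peaks within 1 kb of the gene's own start or of another gene's start, 148 H3K27ac peaks and 9 p300 peaks were left. Of these p300 peaks, those at Rbpj and Dtx1 and some at Nrarp and Ptcra still overlapped H3K4me3 peaks. The 9 genes differed widely in how many peaks they had away from starts, and longer genes had longer windows.

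At Notch1 the strongest H3K27ac away from a start was a single peak inside the gene, chr2:26491209-26499147. It was 7.94 kb wide, at the 99.6th percentile of width in the H3K27ac list, and its fold enrichment of 14.7 exceeded the 6.28 at the gene's own start. Its summit lay 10500 bases into the gene, and none of the other 6 lists had a peak in it. A further 12 peaks of 1.99 to 4.29 lay in the 50 kb upstream. In all, H3K27ac had 29 peaks in the Notch1 window and covered 17.05% of it, at the 84.7th percentile of all genes, whose median was 3.82%. The 3 p300 peaks of the window lay at the Notch1 start and at Sec16a.

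Notch2 had 35 H3K27ac peaks, all of them over the gene and none in the flanks. The strongest after the start, chr3:98060682-98065720, was 5.04 kb wide with a fold enrichment of 11.8, and 2 p300 peaks of 3.41 and 4.28 lay in it, 48.9 and 49.4 kb into the gene. H3K27ac covered 18.55% of the gene body, at the 81.2nd percentile of all genes, whose median was 2.23%. It covered 10.99% of the window, at the 74.6th percentile.

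Around Notch3 H3K27ac had 45 peaks and covered 20.25% of the window, with 1 peak of 4.39 at the gene's own start. Of these, 33 lay downstream of the gene, 10 over the body and 1 upstream, and 7 overlapped H3K27me3. The strongest, chr17:32089532-32093070, was 12.3 with its summit 75.7 kb from the Notch3 start. No p300 peak was called in the whole window.

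Rbpj had 6 H3K27ac peaks and covered 3.93% of its window, close to the median. One, chr5:53565163-53567651, exceeded the promoter with 16.6 against 12.3. It lay 23.5 kb upstream of the first start but inside the annotated gene, and overlapped H3K4me3 (6.90) and p300 (3.82) peaks.

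The target genes ranged from 0 to 24 H3K27ac peaks. Hey1 had no H3K27ac and no p300 peak in its window, the nearest lying 95.2 and 99.7 kb away. Hes1 had 2 H3K27ac peaks, of 6.39 and 4.72, both inside its EZH2, SUZ12 and H3K27me3 domain, and no p300. Dtx1 had 16 H3K27ac peaks, of which 12 lay away from gene starts; the strongest of these (9.705) lay 37.3 kb downstream of the start, beyond the gene. Nrarp had 24, covering 26.5% of its window (93.9th percentile), with a group of 10 in the 17 kb upstream whose strongest was 11.6 and lay 16.9 kb before the start without a p300 peak. Ptcra had 15, of which 6 lay at the starts of neighbouring genes. The strongest of the others, chr17:46806424-46808676, reached 11.2, lay 44.7 kb upstream and held a p300 peak of 3.38. The gene-dense windows of Nrarp and Ptcra each had 8 p300 peaks, with 4 and 5 of them at the starts of other genes.

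**Figure D4:**
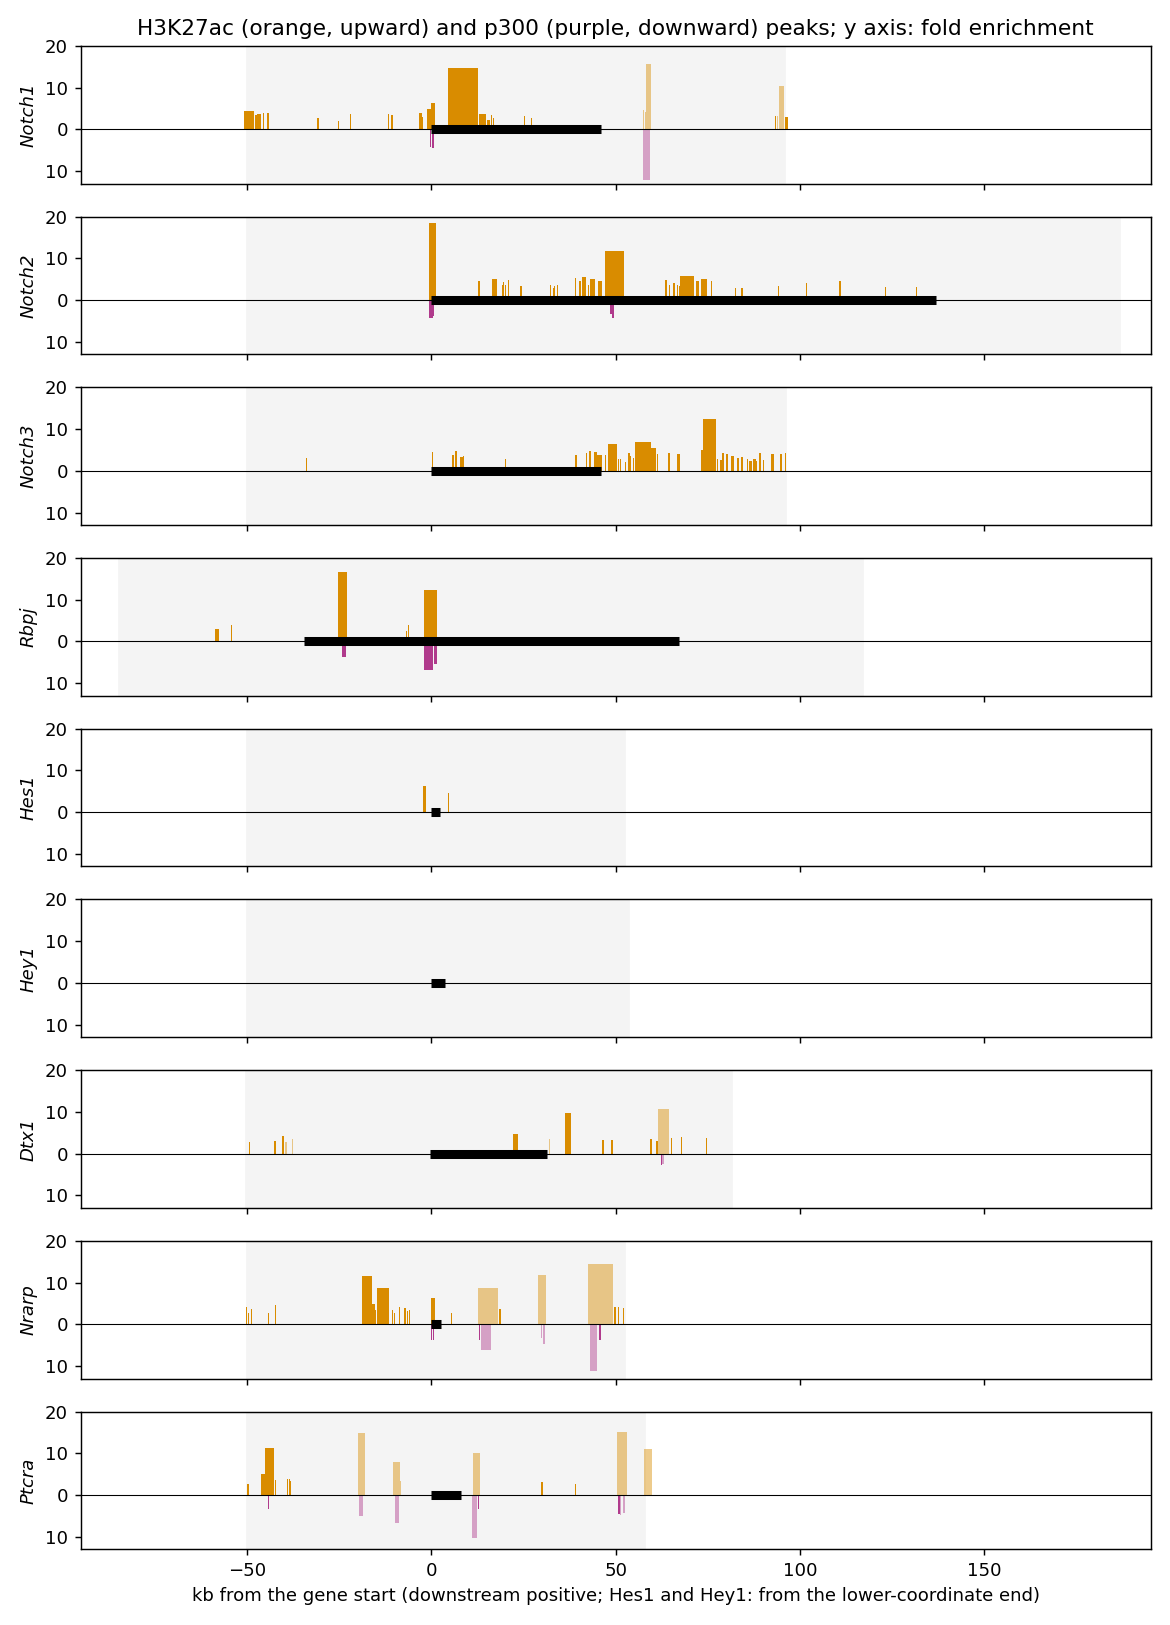
H3K27ac peaks (orange, upward) and p300 peaks (purple, downward) by fold enrichment (y axis) and distance in kb from the start (x axis, downstream positive; Hes1 and Hey1 from the lower-coordinate end). The black bar is the gene, grey shading the window of 50 kb either side, and pale bars are peaks within 1 kb of another gene's start; narrow peaks are widened to stay visible. The bar inside Notch1 is 7.94 kb wide, Notch3 has the most H3K27ac peaks (45), and the row of Hey1 is empty.

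The other genes of the pathway were read the same way from a list of 68 genes in 10 roles, which includes the 9. EZH2 with SUZ12 and H3K27me3 was called at 21 of the 68, against 12.6% of all genes, and EZH2 without SUZ12 or H3K27me3 at 32, against 31.3%. All 5 ligands (Dll1, Dll3, Dll4, Jag1 and Jag2), which sit on the signal-sending cell, had EZH2, SUZ12 and H3K27me3. Of these ligands, 3 also had H3K4me3: Dll1 (7.06), Jag1 (10.2) and Jag2 (3.05). Jag1 had H3K27ac (4.05) and Jag2 had N-MYC (4.44) as well. H3K27me3 among them ran from 9.02 at Jag2 to 20.5 at Dll1, and Jag1 had the highest EZH2 of the ligands (12.48). Notch4, the receptor of endothelium, had H3K27ac (4.46) alone.

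The enzymes that prepare and cut the receptor had active lists, which over all genes were called at 51.0% (H3K4me3), 51.6% (H3K27ac), 39.3% (p300) and 32.9% (N-MYC) of starts, against 13.7% for SUZ12 and 25.8% for H3K27me3. All 5 genes of receptor modification, among them the fucosyltransferase Pofut1 (H3K4me3 42.1), the glucosyltransferase Poglut1 (30.9) and the fringe enzyme Lfng (23.7), had H3K4me3, H3K27ac, p300 and N-MYC, and none had SUZ12 or H3K27me3. All 10 cleavage genes had H3K4me3, H3K27ac and p300 and none had SUZ12, while Aph1b, named here after its values were seen, had an H3K27me3 peak of 3.41. Adam10, the protease that makes the ligand-dependent cut, had an H3K4me3 value of 44.1, and the gamma-secretase subunit Ncstn had 40.79. N-MYC was called at 8 of the 10, Ncstn and Furin being without it. Of the ubiquitin ligases that act on ligands, Mib1 (41.4) and Mib2 (36.6) had EZH2 without the other Polycomb features, and Neurl1a and Neurl1b had all 3.

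In the nuclear complex, the Mastermind gene Maml1 (H3K4me3 40.4) and the acetyltransferase gene Kat2b (43.7) resembled Rbpj, with the same 5 lists. Maml3 had all 7 lists, with H3K4me3 at 20.4 and H3K27me3 at 3.51. Among corepressors, Spen (41.2) and Hdac1 (39.05) had H3K4me3 and no SUZ12 or H3K27me3. Tle1 had EZH2 (14.75), SUZ12 (10.51) and H3K27me3 (16.7), with weak peaks of H3K4me3 (5.89), H3K27ac (4.17) and p300 (3.64). Of the genes that limit or degrade the receptor, Itch (41.4), Numb (38.3) and Fbxw7 (37.1) had EZH2 alone of the Polycomb features. Dtx3 and Dtx4 shared SUZ12 and H3K27me3 with Dtx1 and Nrarp but, unlike Dtx1, also had active lists. Dtx3 had H3K4me3 at 29.0 and H3K27ac at 14.1, with H3K27me3 at 4.05. Dtx4 had H3K4me3 at 15.95, H3K27ac at 9.28 and N-MYC at 5.26, with H3K27me3 at 11.1.

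Among HES and HEY genes, 4 of 7 (Hes1, Hes7, Hey1 and Hey2) had SUZ12 and H3K27me3, against 13.6% of all genes. Hes5 had H3K4me3 at 36.3 and N-MYC at 5.602 with an H3K27me3 peak of 3.67 and no SUZ12, and Hes6 (H3K4me3 23.8) had neither. Hes7 had H3K4me3 at 20.3. Of the 11 T-cell targets, 4 (Gata3, Myc, Ccnd1 and Igf1r) had all 3 Polycomb features, against 12.6% of all genes. Gata3 had all 7 lists, Myc also had H3K4me3 (11.1) and H3K27ac (3.63), and Igf1r H3K4me3 (16.6) and N-MYC (5.23). Ccnd1 had no active list. Ccnd3 (H3K4me3 47.8) had the 5 lists seen at Notch1, and Gata3 (48.9) and Bcl11b (41.8) had H3K27me3 peaks of 4.045 and 3.58 beside theirs. Il2ra, which encodes the alpha chain of the interleukin-2 receptor, was the other gene of the 68, with Ptcra, without a peak in any list.

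**Figure D5:**
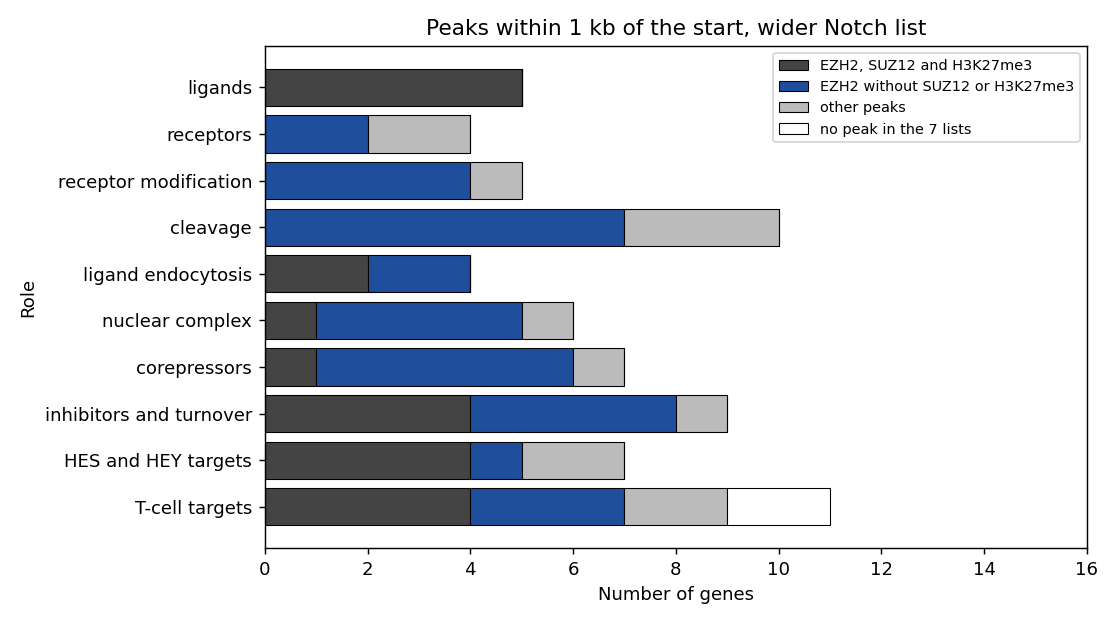
Number of genes (x axis) in each of 10 roles of the wider Notch list (y axis) by the peaks within 1 kb of the start. All 5 ligands have EZH2, SUZ12 and H3K27me3 (12.6% of all genes do), none of the receptor, receptor modification and cleavage genes does, and 4 of the 7 HES and HEY genes do.

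To place each pattern among all genes, the strongest fold enrichments at the start in the 7 lists, as log2(1 + fold), were compared by Euclidean distance. Outside the pathway list, Notch1 was nearest to Pcyt1a (distance 0.181), Abcg1 and Polg, and Notch3 to Cfap126 (0.058), Cd59a and Ndufb4c. Notch2 was nearest to the neighbours Stkld1 and Surf4 (0.217 each, with the same values) and to Wdr70, and Rbpj to Ccdc146, Fam185a (0.156 each) and Rangap1. Dtx1 had close neighbours in Rnf180 (0.052), Lrrc10b and Gfy. Nrarp had none as close, the nearest being Coro2a at 0.765, Ppp1r1b and Nt5dc2. Hes1 was nearest to Klf4 (0.730), Epb41l4b and LOC108168956, and Hey1, apart from LOC115489673, to Rbpms2 (0.522) and Acvr2a. Within the 9 genes the closest pairs were Notch2 with Rbpj (0.838) and Hes1 with Hey1 (1.095). These distances rest on 7 values from 1 library each.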

How the data were processed

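The labels' protocols describe ChIPmentation libraries from lymphoma cells. The submitters' processing notes name Bowtie2, MACS2, SAMtools, FastQC and deepTools and the builds mm10 and GRCm38, without versions or settings. Each of the 7 deposited lists gives per peak a fold enrichment, a linear ratio over background by the authors, and p-values and q-values that the authors deposited as −log10. The smallest −log10 q of a list lay between 2.00 and 2.08. A deposited whole-number score entered no result. Whether inputs served as controls, and read depth, are not given in the sources used here.

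Gene positions came from the RefSeq annotation of GRCm38.p6. The start was taken from the RefSeq promoter windows for 17492 genes, 7 of the 9 included, and the other 4395 genes, with Hes1 and Hey1, were read at both ends. A peak counted when it overlapped the window by at least 1 base, and the strongest one gave the value. Computation used Python 3.11.15, pandas 2.3.3 and numpy 2.4.6. The overlap step was tested on simulated data.

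The genes, lists and rules were chosen with earlier results of these data known. All 9 genes are named, with, from the list of 68, those with SUZ12 and H3K27me3 and up to 3 per role by H3K4me3, and the 3 nearest genes by pattern; 2 genes that this rule selects are not reported here. Notch4, Furin, Il2ra and the marker genes were chosen after their values were seen. Alternatives were other windows, thresholds, flanks and list lengths; 2 of them, both gene ends and the whole H3K4me3 peak, were chosen after seeing the data.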

Additional observations from a re-analysis of the deposited data

How the results depend on the processing

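Of the alternative counts computed for the counts per list and the flank totals, 114 stayed within 1.5 times the reported count and 13 did not. In lists of equal length (9798 peaks each), genes of the 9 with a peak at the start numbered 2 for H3K27ac and 4 for H3K4me3, and genes with a peak over the body 3 for H3K27ac, 3 for H3K27me3 and 4 for H3K4me3; the list of 68 genes had H3K27ac at 34 starts in place of 53. Requiring the summit in the window left H3K27me3 at 2 starts, and requiring it in the body left N-MYC at 1 gene in place of 3. Shares of all genes in the cut lists or with the summit required are not given here. Whether the counts of the Notch genes fell more than those of all genes was therefore not tested. Flanks of 25 kb and 100 kb gave 109 and 340 H3K27ac peaks and 18 and 53 p300 peaks, as a smaller or larger window must, and leaving out peaks at other genes' starts gave 17 p300 peaks. Over the 63 pairs of a gene and a list at the start, calls lost numbered 9 in lists of equal length, 5 with the summit required in the window, 5 with both gene ends (all at Rbpj), 3 at a fold enrichment of at least 4, 2 with 500 bases and 1 at a q-value of at most 1e-05. Calls gained were 1 with both ends and 1 with 2 kb, and reading the whole H3K4me3 peak changed none. Beyond the changes of window and list length, the cause was not tested. No paired analysis was possible because each antibody had 1 library and no result came from a test. The depth behind each list is unknown, so a missing peak may lie below the threshold.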

Other observations

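All 5 markers of red-cell precursors had H3K4me3 at the start, against 51.0% of all genes. Hbb-bs had an H3K4me3 fold enrichment of 19.8, Klf1 19.8, Epor 19.1, Gata1 12.1 and Alas2 9.38. All 5 also had H3K27ac, against 51.6% of all genes, from 4.70 at Alas2 to 13.6 at Klf1. N-MYC was called at none of them, against 32.9% of all genes, and p300 at Klf1 alone (3.66), against 39.3%. The part of other cells in the values of the Notch genes was not tested.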
